A study of Mus musculus with 9 samples.

Results

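Hipk3, Zfp609, Arid1a, Nfix, Elf2 and Fbxw7 are host genes whose circular RNAs (circRNAs, here also called rings) are known from tissues other than liver, and their rings were followed in mouse liver after acetaminophen. The hosts were chosen by gene name, selected on earlier read counts of these same libraries, so their levels and calls below are a description. The deposited table names them as the only host of 27 rings out of 11312, and they are 6 of 3929 host genes or joint gene groups. Hipk3 had 3 rings, Zfp609 4, Arid1a 1, Nfix 7, Elf2 9 and Fbxw7 3. A further ring listed under Gm37240 and Fbxw7 together, with 6 reads in APAP 2 and 6 in dmPGE2+APAP 1, was left out. The livers were from C57 BL6 animals with a wild-type genotype, aged 8 weeks and weighing 20 g on average. The 3 groups of 3 libraries were saline controls, mice injected with 500 mg/kg acetaminophen (APAP), and mice injected with 300 µg/kg dmPGE2 (a stable analogue of prostaglandin E2) 1 hour ahead of the same APAP dose. Livers of the treated mice were collected 6 hours after APAP, which injures hepatocytes when overdosed, and the control titles carry the same hour. Since the labels do not tie libraries to separate animals, a p-value here sets differences against the spread between libraries alone. In whole liver, fewer cells of a type and less RNA per cell cannot be told apart.

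A circRNA forms by back-splicing, in which the donor at the 3′ end of an exon is joined to an acceptor upstream of it, at the same or an earlier exon. The closed ring has no free ends and resists exonucleases, and it is counted by reads that cross the back-splice junction, a join that the linear mRNA lacks. Rings that hold their host's start codon have been studied as possible templates for translation, among them those of ZNF609 (the human counterpart of Zfp609) and FBXW7. Hipk3 encodes a nuclear protein kinase, Zfp609 a zinc finger protein, Arid1a a DNA-binding member of SWI/SNF chromatin remodelling complexes, Nfix a transcription factor of the nuclear factor I family and Elf2 one of the ETS family. Fbxw7 encodes the subunit by which a ubiquitin ligase recognises its targets.

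The back-splice junctions of the most-read ring of each host, and of an Elf2 ring with a shifted acceptor, are shown because they are the sequences that the reads count. Each line runs 5′ to 3′ on the gene's strand. Lower case gives the 20 bases that end the ring at its donor, and capitals give the 20 bases that begin it at its acceptor. The sequences are from GENCODE M21 transcripts (GRCm38).
Hipk3 mmu_circ_0001052: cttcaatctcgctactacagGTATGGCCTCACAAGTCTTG
Zfp609 mmu_circ_0001797: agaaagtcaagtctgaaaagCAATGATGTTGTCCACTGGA
Nfix mmu_circ_0001704: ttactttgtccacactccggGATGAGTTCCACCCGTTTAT
Fbxw7 novel_circ_0009400: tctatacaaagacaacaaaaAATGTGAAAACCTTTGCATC
Elf2 mmu_circ_0001125: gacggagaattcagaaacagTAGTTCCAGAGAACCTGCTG
Elf2 mmu_circ_0001124: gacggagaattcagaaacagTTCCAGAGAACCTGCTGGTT
Arid1a mmu_circ_0001283: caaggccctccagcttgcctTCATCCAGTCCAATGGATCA

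The 4 single-exon rings lie on GRCm38 as follows. The Hipk3 ring (chr2:104470749-104471847, minus strand) is exon 2 of Hipk3-201 and has 1099 bases. The Zfp609 ring (chr9:65794622-65795495, minus strand) is exon 2 of Zfp609-201 and has 874 bases. The Nfix ring (chr8:84771784-84772315, minus strand) is exon 2 of Nfix-204 and has 532 bases, and the Fbxw7 ring (chr3:84903501-84904079, plus strand) is exon 3 of Fbxw7-203 and has 579 bases. The other 2 hosts had no single-exon ring in the table. The most-read Elf2 ring (chr3:51308050-51326035, minus strand) spans exons 2 to 4 of Elf2-212, 484 exonic bases, and the Arid1a ring (chr4:133719537-133723051, minus strand) spans exons 2 to 4 of Arid1a-202, 780 bases. A junction read shows only the 2 joined ends, so the exons between them are those of the annotation.

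The single-exon rings stood in the long part of the table's range. Among 240 rings made of 1 annotated exon, with a median of 394 bases, the Hipk3 exon was longer than 98.3%, the Zfp609 exon than 95.4%, the Fbxw7 exon than 81.3% and the Nfix exon than 75.4%. Exon 2 made up 47.9% of those 240 rings. The introns beside them ranged widely. The intron upstream of the Nfix exon had 1038 bases and was longer than that of 5.46% of single-exon rings, while the upstream intron had 31970 bases in Zfp609, 22100 in Hipk3 and 13248 in Fbxw7. The downstream introns had 24113 to 63420 bases.

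The start codon of the host lies in the rings of Hipk3, Zfp609, Fbxw7 and Elf2 named above, and not in those of Nfix and Arid1a. By the annotation, 31.2% of single-exon rings in coding transcripts hold it. In Hipk3 it begins at base 3 of the ring, within the capitals of the junction shown above. The other 3 are printed with 12 bases on each side to show what the ring carries, with the start codon in capitals.
Zfp609 mmu_circ_0001797 start: gttgactctaagATGtccttgagcagt
Fbxw7 novel_circ_0009400 start: tggcttttggaaATGaatcaggaactg
Elf2 mmu_circ_0001125 start: agggaacgcacgATGgcatcggcggtg

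Read round the ring from that codon, the frame of the Zfp609 ring ran for 250 codons, crossed the junction and met a stop that ended 6 bases past it. The stop is the TGA in bases 4 to 6 of the capitals of the Zfp609 junction. In the Hipk3 ring the frame had 387 codons and its stop ended 67 bases past the junction, and in the Elf2 ring it had 87 codons and its stop ended 26 bases past it. The Fbxw7 ring has a length divisible by 3, and its frame met no stop. Of 1281 rings of the table that hold a start codon, 174 (13.6%) gave no stop, as did 8 of the 73 with a single exon. The frame crossed the junction before its stop in 85.2% of the 1281. These are readings of the annotated letters, and translation was not measured.

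Of the 27 rings, 4 are single-exon rings, 13 span 2 or more exons of 1 transcript, and 10 have ends that are not both exon ends of 1 transcript. They had 14769 back-splice reads in all, of which 8875 (60.1%) came from the 4 single-exon rings. The Nfix ring alone gave 7012 of these 8875 reads. The 6 hosts together held 1.54%, 1.94% and 2.66% of back-splice reads in controls 1 to 3. The shares were 1.73%, 1.76% and 1.68% in the APAP libraries and 1.61%, 1.36% and 1.30% in the dmPGE2+APAP libraries, so that the lowest control lay within the range of the treated libraries.

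Control 3 stood apart before any comparison. It had 4362 back-splice reads and reads of 739 rings, against 69268 to 154449 reads and 3181 to 5214 rings in the other 8 libraries, called the deeper libraries below. No library holds a count of 1, the lowest entries being 0 and 2, and a ring listed at 0 may therefore have had a read. CPM below is back-splice reads per 1000000 back-splice reads of the library. Each ring has 1 junction, so CPM needs no length term. Some hosts that mark liver cell types also had back-splice reads. Hosts that mark hepatocytes, with reads at 9 of 12, summed to 0 CPM in control 3 and to 993 to 1042 in the other controls, 1270 to 1704 in APAP and 1393 to 1634 in dmPGE2+APAP. Hosts that mark sinusoidal endothelial cells (5 of 6) summed to 780 to 2080 CPM over all libraries. Of the macrophage markers 1 of 6 had reads (Adgre1), as did 1 of 6 leukocyte markers (Ets1), 1 of 5 cholangiocyte markers (Pkhd1) and 0 of 5 stellate cell markers. The part of cell makeup in the results was not tested.

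Nfix ranked highest of the hosts. Over the 8 deeper libraries its rings averaged 8365 CPM, those of Elf2 5472, those of Fbxw7 1019, those of Zfp609 830, those of Hipk3 431 and that of Arid1a 36.0. The library ranges of Nfix (7344 to 10041 CPM), Elf2 (4713 to 6410) and Fbxw7 (810 to 1169) did not overlap each other. Zfp609 ranged from 60.5 to 1632 CPM and Hipk3 from 0 to 1914, so neither could be placed apart from Fbxw7 or from the other. Arid1a (0 to 137 CPM) overlapped both of these and lay below Fbxw7. Relative to the mean, the spread between these libraries (CV) was 10.8% for Nfix, 11.8% for Fbxw7 and 13.6% for Elf2, against 91.3% for Zfp609, 134% for Arid1a and 185% for Hipk3. Nfix, Elf2 and Fbxw7 were thus read evenly, and Zfp609 and Hipk3 were not. The CV of Arid1a rests on 0 to 15 reads in each of these libraries, too few to place it with either set.

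**Figure D1:**
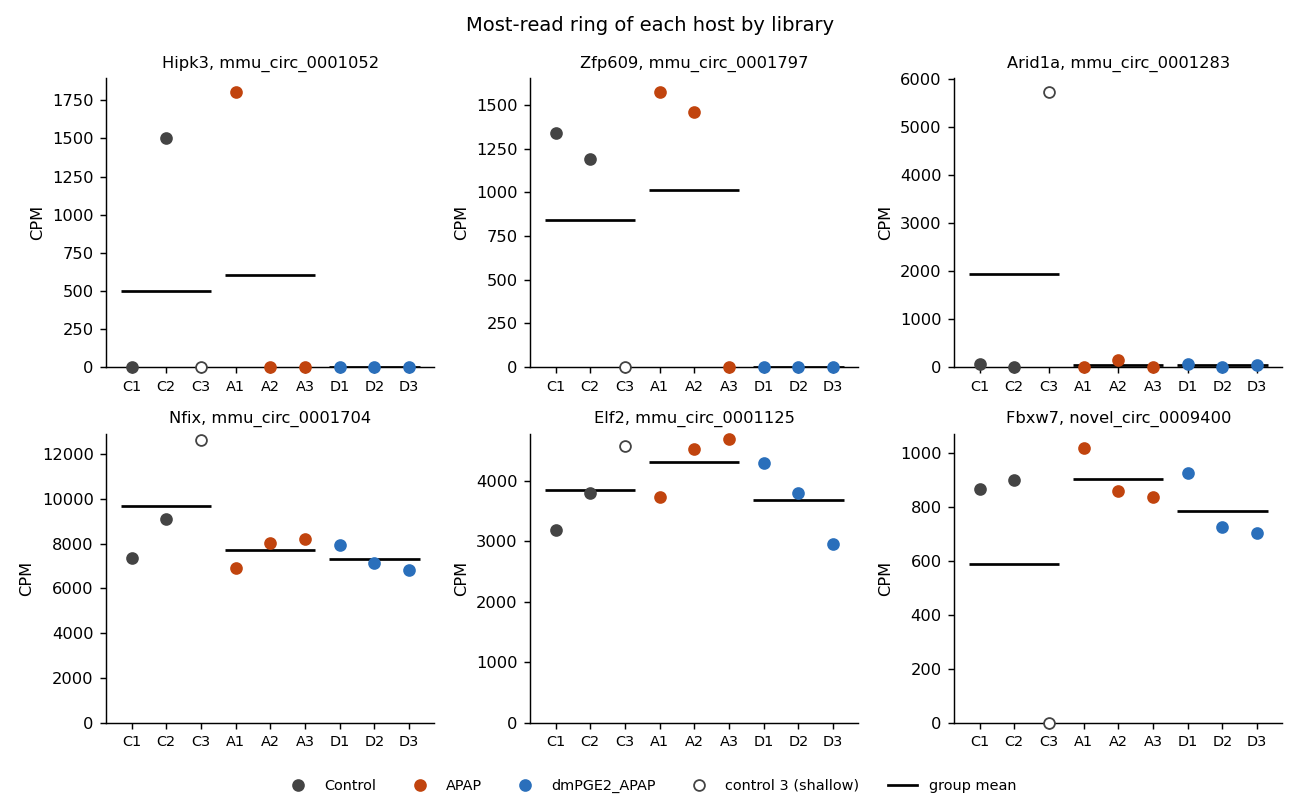
CPM (back-splice reads per 1000000) of the most-read ring of each host in every library, C for control, A for APAP and D for dmPGE2+APAP, with lines at group means. The Nfix, Elf2 and Fbxw7 rings are present in all 8 deeper libraries, the Zfp609 ring in 4 and the Hipk3 ring in 2, and the highest Arid1a value is the shallow control 3.

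The Nfix single-exon ring mmu_circ_0001704 had 1135, 1185 and 55 reads in controls 1 to 3, 749, 876 and 568 in the APAP libraries, and 956, 705 and 783 in the dmPGE2+APAP libraries. Control averaged 9692 ± 2677 CPM, APAP 7699 ± 705 and dmPGE2+APAP 7289 ± 576 (SD, n = 3), and by its mean over the deeper libraries it was ring number 6 of the table. The highest control value is control 3 (the 55 reads), and all 3 groups overlapped. The edgeR quasi-likelihood fit gave a log2 difference of -0.01 (SE 0.32) for APAP minus control and -0.01 (SE 0.32) for dmPGE2+APAP minus APAP, with Benjamini-Hochberg adjusted p of 1 in both.

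Other Nfix rings shared an end with that exon. Rings that use its acceptor held 93.7% of Nfix reads, and rings that use its donor held 97.4%. The next ring, novel_circ_0013893, joins the donor of exon 2 to a site at 84779275, which is not an annotated exon end. It had 67, 59 and 6 reads in the controls, 43, 30 and 40 in APAP, and 69, 51 and 52 in dmPGE2+APAP, and was read in all 9 libraries. The most-read Nfix ring of 2 or more exons was novel_circ_0013888 (exons 3 to 8), with 11, 30 and 2 reads in the controls, 2, 2 and 9 in APAP, and 4, 0 and 0 in dmPGE2+APAP. Scaled to depth, its 3 controls (71.2, 231 and 459 CPM, the last from 2 reads) lay above the 3 dmPGE2+APAP libraries (33.2, 0 and 0 CPM). Both groups overlapped APAP. For dmPGE2+APAP minus control its unadjusted p was 0.0448 (edgeR adjusted p = 0.960), and neither ring passed the test in any comparison. The share of all tested rings whose groups part in this way was not counted. Of the remaining 4 Nfix rings, novel_circ_0013891 had 0 to 22 reads and was listed at 0 in control 3 beside 22 reads in control 2, and the others had at most 11 reads in any library.

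The Elf2 ring of exons 2 to 4, mmu_circ_0001125, had 492, 494 and 20 reads in the controls, 405, 496 and 325 in APAP, and 519, 377 and 339 in dmPGE2+APAP. In CPM it averaged 3857 ± 701, 4317 ± 517 and 3688 ± 684 (SD, n = 3), with overlapping groups. The log2 difference was 0.42 (SE 0.34, edgeR adjusted p = 1) for APAP minus control and -0.16 (SE 0.34, edgeR adjusted p = 1.00) for dmPGE2+APAP minus APAP. The ring took 70.5% of the host's reads, a smaller share than the leading ring held in the other 5 hosts (83.9% to 100%). A longer ring from the same acceptor, mmu_circ_0001123 (exons 2 to 5 of Elf2-207), had 189, 134 and 5 reads in the controls, 77, 123 and 70 in APAP, and 174, 72 and 159 in dmPGE2+APAP. Both rings were read in every library. The acceptor they share was used by 96.1% of Elf2 back-splice reads.

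Elf2 also used an acceptor 3 bases further in. The bases skipped are TAG, as the printed junctions of mmu_circ_0001125 and mmu_circ_0001124 show, so the shorter ring begins right after an AG, the letters that end most introns. Over the 8 deeper libraries the shorter form had 104 reads beside 3447 of the longer, or 2.93% of the pair (95% Wilson interval 2.42% to 3.54%, which covers counting error only). By library it had 9, 32 and 0 reads in the controls, 26, 8 and 15 in APAP, and 2, 3 and 9 in dmPGE2+APAP. As a percent of the pair they ran from 0.384% in dmPGE2+APAP 1 to 6.08% in control 2, and the groups overlapped. Control 3 had 20 reads of the pair and 0 of the shorter form, with an upper Wilson bound of 16.1%. In the shorter pair that ends at exon 3, novel_circ_0009293 used the inner acceptor in 3 libraries, where control 2 had 6 reads, APAP 2 had 14 and dmPGE2+APAP 2 had 4. Over the deeper libraries its 24 reads beside 149 of the outer form were 13.9% of that pair (9.50% to 19.8%). The outer form of that pair, novel_circ_0009294, had 9 to 33 reads in each deeper library. Of the other 4 Elf2 rings, 3 had at most 10 reads in any library. Among these, novel_circ_0009288 also used the inner acceptor, with the donor of mmu_circ_0001123. Over the deeper libraries it had 23 reads beside 998 of mmu_circ_0001123. The fourth, novel_circ_0009286, named after its values were seen, had 9, 8 and 0 reads in the controls, 36, 14 and 16 in APAP, and 14, 9 and 4 in dmPGE2+APAP. In CPM its APAP libraries (331, 128 and 231) lay above every control (58.3, 61.6 and 0) and every dmPGE2+APAP library (116, 90.8 and 34.8). It did not pass, with a log2 difference of 2.03 (SE 1.09, edgeR adjusted p = 0.801) for APAP minus control and -1.44 (SE 1.00, edgeR adjusted p = 1.00) for dmPGE2+APAP minus APAP. How often the groups of a ring part in this way over all tested rings was not counted, here or for other rings.

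The Fbxw7 single-exon ring novel_circ_0009400 had 134, 117 and 0 reads in the controls, 111, 94 and 58 in APAP, and 112, 72 and 81 in dmPGE2+APAP. The 0 stands in control 3, where a second ring of the host had 3 reads. Apart from that library the groups overlapped. The averages were 589 ± 511, 906 ± 101 and 787 ± 124 CPM (SD, n = 3), and control averaged 884 CPM without control 3. The log2 difference was 0.29 (SE 0.42, edgeR adjusted p = 1) for APAP minus control and -0.04 (SE 0.28) without control 3. For dmPGE2+APAP minus APAP it was -0.15 (SE 0.41, edgeR adjusted p = 1.00). Of Fbxw7 reads, 99.8% used the donor of this exon. The other ring there, novel_circ_0009398 (exons 2 to 4 of Fbxw7-204), had 27, 35 and 3 reads in the controls, 8, 18 and 17 in APAP, and 16, 14 and 10 in dmPGE2+APAP. Scaled to depth, the controls (175, 269 and 688 CPM, the last from 3 reads) lay above the dmPGE2+APAP libraries (133, 141 and 87.1 CPM). Both groups overlapped APAP (73.6, 164 and 245 CPM). It passed the test in no comparison (edgeR adjusted p = 1.00 for dmPGE2+APAP minus control). How many of all tested rings part their groups likewise was not counted. The remaining Fbxw7 ring, novel_circ_0009403, had 2 reads in dmPGE2+APAP 3.

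**Figure D2:**
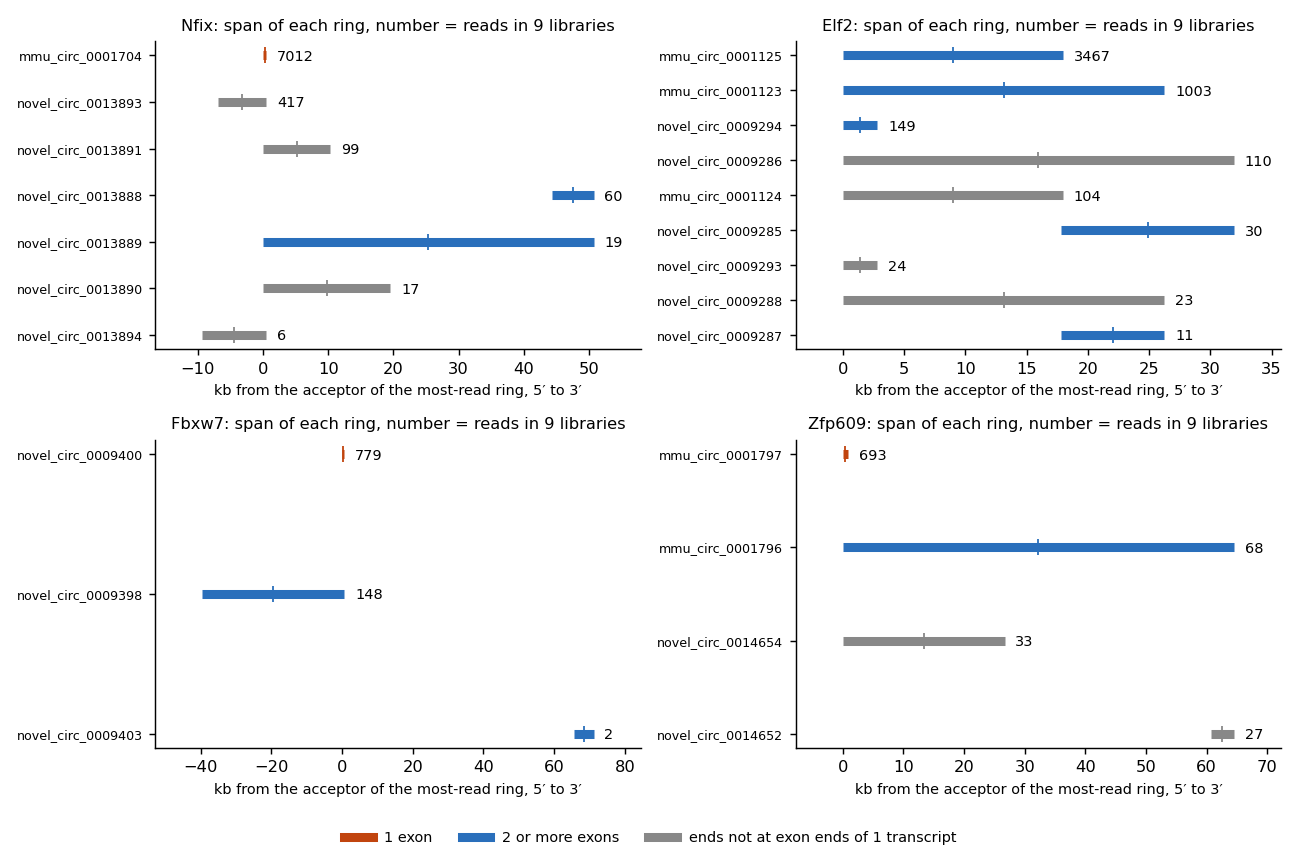
Genomic span of every ring of Nfix, Elf2, Fbxw7 and Zfp609 in kb from the acceptor of the host's most-read ring, with the reads of all 9 libraries as a number beside each bar. The leading rings of Nfix, Elf2, Fbxw7 and Zfp609 have 7012, 3467, 779 and 693 reads. In each host some other ring shares an end with the leading ring and some other ring shares neither end.

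The Zfp609 single-exon ring mmu_circ_0001797 was either well read or listed at 0. It had 207, 155 and 0 reads in the controls, 171, 160 and 0 in APAP, and every one of the 3 dmPGE2+APAP libraries lists it at 0. The 4 libraries with reads had 155 or more, and none had a low count. The zeros fell in control 3, in APAP 3 (69268 back-splice reads, the shallowest of the 8 deeper libraries) and in the dmPGE2+APAP group (99102 to 120531). With a 0 in every group, the groups overlapped. A second ring from the same acceptor, mmu_circ_0001796 (exons 2 and 3), went another way across the libraries, with 16, 8 and 0 reads in the controls, 5, 7 and 0 in APAP, and 18, 0 and 14 in dmPGE2+APAP. The ring novel_circ_0014654, again from that acceptor, had 6 reads in dmPGE2+APAP 2. Back-splicing to the acceptor of the single-exon ring was thus read in each of the 3 dmPGE2+APAP libraries, and in APAP 3 (11 reads of novel_circ_0014654), while control 3 had 0 reads of any Zfp609 ring. Together with novel_circ_0014652, these rings had at most 18 reads in any library. Summed over its rings, Zfp609 had 252, 167 and 0 reads in the controls, 176, 174 and 11 in APAP, and 21, 6 and 14 in dmPGE2+APAP.

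The Hipk3 single-exon ring mmu_circ_0001052 was read in 2 libraries only, with 195 reads in control 2 and 196 in APAP 1, or 1500 and 1804 CPM. It was listed at 0 in the other 7, among them control 1, the deepest library, and all of dmPGE2+APAP. The group means of 500 ± 866 CPM in control and 601 ± 1041 in APAP (SD, n = 3) rest on 1 library each. The other 2 Hipk3 rings, novel_circ_0007682 (exons 9 to 13) and novel_circ_0007683 (exons 4 to 8), had 5 reads in control 1 and 12 in APAP 1. The single-exon ring did not reach the filter of 5 reads in 3 libraries and was not tested on its own.

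High counts beside zeros were uncommon in the table. Of 298 rings with 100 or more reads in at least 1 of the 8 deeper libraries, 11 (3.69%) were listed at 0 in any of the 8, and 5 at 0 in 4 or more. The Hipk3 and Zfp609 single-exon rings are 2 of those 5, and the 4 other member rings among the 298 had no 0. By structure, 3 of 3 single-exon rings of 800 bases or more, the third being mmu_circ_0000960 of Shoc2, had 4 or more zeros. Of the 17 shorter single-exon rings, 0 did. The rest of the 5 span 2 or more exons: Zfand6 mmu_circ_0001591 (381 bases, 7 libraries at 0) and Spopl mmu_circ_0000989 (869 bases, 6 libraries at 0). The cut at 800 bases was set after the values were seen. The Hipk3 and Zfp609 rings belong to hosts selected on earlier read counts of these libraries, and the part of length was not tested. Counting 20 or more reads beside a 0 in the same group, 2 member rings qualified over the deeper libraries (those of Hipk3 and Zfp609). With control 3 counted there were 6, the others being the Fbxw7 single-exon ring, Arid1a mmu_circ_0001283, Elf2 mmu_circ_0001124 and Nfix novel_circ_0013891.

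**Figure D3:**
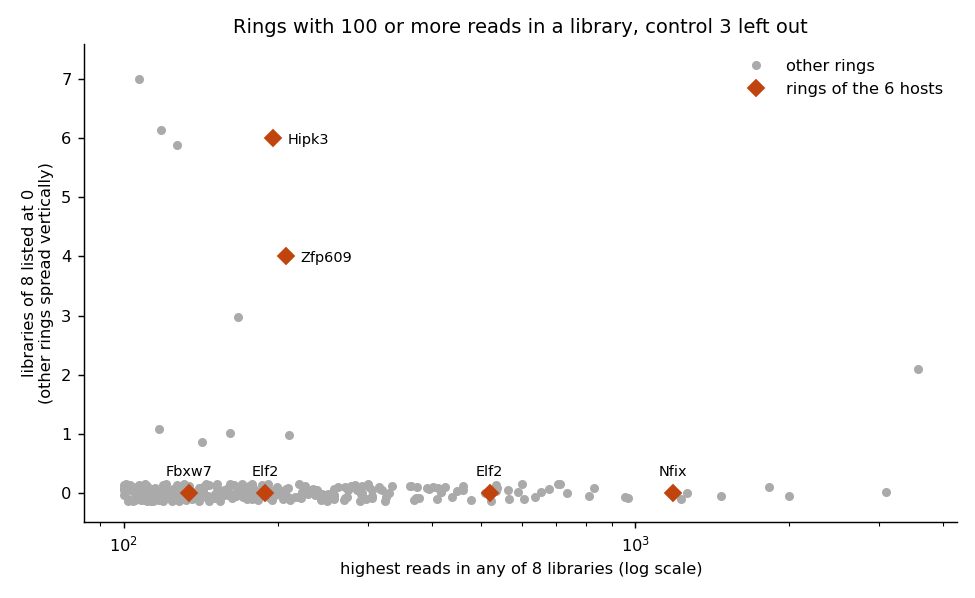
Each of the 298 rings with 100 or more reads in a library, by its highest read count (log scale) and by how many of the 8 deeper libraries list it at 0. The Hipk3 ring stands at 6 libraries and the Zfp609 ring at 4, while the Nfix, Fbxw7 and 2 Elf2 rings stand at 0.

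The Arid1a ring mmu_circ_0001283 was the only ring of its host and had 9, 0 and 25 reads in the controls, 0, 15 and 0 in APAP, and 7, 0 and 4 in dmPGE2+APAP. The 25 reads of control 3 are 5731 CPM, against 0 to 137 CPM in the other 8 libraries. The groups overlapped in every comparison. All 60 of its reads are few for any comparison of levels.

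The comparison of APAP with control asked what 6 hours of APAP injury does to these rings. Of the 27, 17 passed the filter and 10 were not tested. At an edgeR adjusted p under 0.05, 1 member ring was called, Arid1a mmu_circ_0001283, where 0.139% of the 4331 rings tested were. It fell, with a log2 difference of -3.57 (SE 0.78, adjusted p = 0.00535), and turned to 0.56 (SE 2.83, adjusted p = 1) without control 3. Among host sums 1 of the 6 was called, again Arid1a (-4.05, SE 0.94, edgeR adjusted p = 0.0101, and 0.61 without control 3), where 0.339% of 2358 hosts were. Neither call held under DESeq2 or limma-voom, and with a filter of 10 reads in 3 libraries neither was tested. In a fit of the 2 groups alone the ring was called (edgeR adjusted p = 0.0131) and the host sum was not (edgeR adjusted p = 0.851). The ring call was also lost without APAP 1 or APAP 3 (0 called), and the host call without control 1, APAP 1 or dmPGE2+APAP 3 (0 called).

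Pretreatment with dmPGE2 is addressed by setting dmPGE2+APAP against APAP. The Zfp609 single-exon ring was the 1 member ring called (edgeR adjusted p = 1.82e-23), where 0.0693% of rings were, and no fold is given against a group listed at 0 throughout. The ring passed the filter through control and APAP libraries alone, and APAP 3 was at 0 as well. It was not called by DESeq2 (adjusted p = 0.787) or limma-voom (adjusted p = 0.269). In a fit of the 2 groups alone, with or without a replicate block, it failed the filter and was not tested. Of host sums, Zfp609 fell (log2 difference -3.22, SE 0.48, edgeR adjusted p = 2.52e-07) and Hipk3 was called lower with all of dmPGE2+APAP at 0 (edgeR adjusted p = 2.01e-08), where 0.127% of hosts were called. The Zfp609 sum was not called by DESeq2 (adjusted p = 0.790), by limma-voom (adjusted p = 0.592), in an edgeR fit of the 2 groups (adjusted p = 0.124) or without APAP 1. The Hipk3 sum passed the filter only through control 1 (5 reads), control 2 (195) and APAP 1 (208), the libraries where it had reads, and APAP 2 and 3 were at 0 as well. It was not called by limma-voom (adjusted p = 0.923), and DESeq2 gave it no p. In the fit of 2 groups, with the replicate block, with a filter of 10 reads, and without control 1, control 2 or APAP 1, it failed the filter and was not tested.

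The comparison of dmPGE2+APAP with control shares its libraries with the comparisons above. It called 2 member rings where 0.115% of rings were called. They were Zfp609 mmu_circ_0001797 (edgeR adjusted p = 6.81e-23) and Arid1a mmu_circ_0001283, which fell by 4.13 on the log2 scale (SE 0.81, edgeR adjusted p = 0.000366) and stood at 0.04 without control 3. Of host sums, 3 were called where 0.17% of hosts were: Zfp609 (-3.28, SE 0.49, edgeR adjusted p = 1.96e-07), Hipk3 (edgeR adjusted p = 3.9e-08) and Arid1a (-4.63, SE 0.97, edgeR adjusted p = 0.00197, and 0.05 without control 3). The Arid1a host call was also lost without APAP 1, dmPGE2+APAP 2 or dmPGE2+APAP 3, and the Hipk3 sum was not tested without control 1, control 2 or APAP 1. With a filter of 10 reads, neither the Arid1a ring, its host sum nor the Hipk3 sum was tested. In a fit of the 2 groups alone the Arid1a ring was not called (edgeR adjusted p = 0.125), nor was its host sum (edgeR adjusted p = 0.754), and the Zfp609 sum was (edgeR adjusted p = 0.00239). The Zfp609 ring and the Hipk3 sum failed the filter there and were not tested. In the main fit both passed it through control and APAP libraries alone. Both were at 0 in control 3 as well as in all of dmPGE2+APAP. Under that same filter, limma-voom called the Zfp609 ring (adjusted p = 0.0170) and 0 hosts. No tested ring or host sum of Nfix, Elf2 or Fbxw7 was called by edgeR in any of the 3 comparisons. DESeq2 called 0 member rings and 0 member hosts in all of them, with 2 to 4 of 17 rings and 0 or 1 of 6 hosts at an unadjusted p under 0.05. The shares of all tested rings and hosts at such a p are not given here, so these counts cannot be read as a trait of the members.

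The table also lists non-junction reads, taken here as reads at a ring's sites that do not span its junction. The circular share below is the percent of junction reads among both kinds, with 95% Wilson intervals that cover counting error only. It is a share of reads and not of RNA molecules. Non-junction reads were not split by whether they came from linear RNA or from other rings over the same sites. Over the 8 deeper libraries the Nfix single-exon ring had a circular share of 87.1% ± 2.99 (SD, n = 8), higher than 98.2% of 1968 rings, whose median was 30.5%. Elf2 mmu_circ_0001125 had 75.3% ± 1.44 and the Fbxw7 single-exon ring 75.3% ± 5.55. The rarer rings of the same hosts were lower or more spread. Elf2 mmu_circ_0001123 had 74.2% ± 9.66, close to the leading Elf2 ring. The values were 54.2% ± 15.2 for Fbxw7 novel_circ_0009398, 44.7% ± 7.68 for Nfix novel_circ_0013893 and 9.26% ± 9.57 over 6 libraries for Nfix novel_circ_0013888.

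Where they were read, the single-exon rings of Zfp609 and Hipk3 had circular shares above 60%, and the share of the Arid1a ring ranged widely. The Zfp609 single-exon ring had shares of 86.6% and 87.6% in controls 1 and 2 and 83.4% and 89.4% in APAP 1 and 2, with 19 to 34 non-junction reads. The Hipk3 ring had 60.6% (55.1% to 65.7%) in control 2 and 69.0% (63.4% to 74.1%) in APAP 1. Libraries that list a ring at 0 give no non-junction reads for it, so these reads could not be compared there. The Arid1a ring ran from 15.2% in control 3 to 71.4% (50.0% to 86.2%) in APAP 2.

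Control 3 had the lowest circular share at each of the 7 member rings with a value there. The Nfix ring had 55 junction and 598 non-junction reads in it (8.42%, 6.53% to 10.8%), against 79 to 153 non-junction reads in each of the other 8. The Elf2 ring had 20 and 82 (19.6%, 13.1% to 28.4%), against 112 to 163 non-junction reads in the others. Over all rings the median share was 3.17% in control 3 and 16.3% to 22.7% in the others. A test over the 3 groups was possible at 9 member rings, and 0 passed the exact permutation test at an adjusted p under 0.05, as did 0% of 1624 rings. The libraries could be arranged over the groups in 90 to 1680 ways per member ring. The smallest possible p was thus too large for 1 ring to pass alone after adjustment, and the lack of passing rings settles nothing. At an unadjusted p under 0.05, 0 of the 9 passed and 5.48% of all did. Zfp609 mmu_circ_0001796, with 2 values per group and 90 arrangements, could not reach such a p. Without control 3, again 0 passed after adjustment, and the smallest unadjusted exact permutation p of a member was 0.0893, for Nfix novel_circ_0013893, where 6.97% of all rings had one under 0.05.

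**Figure D4:**
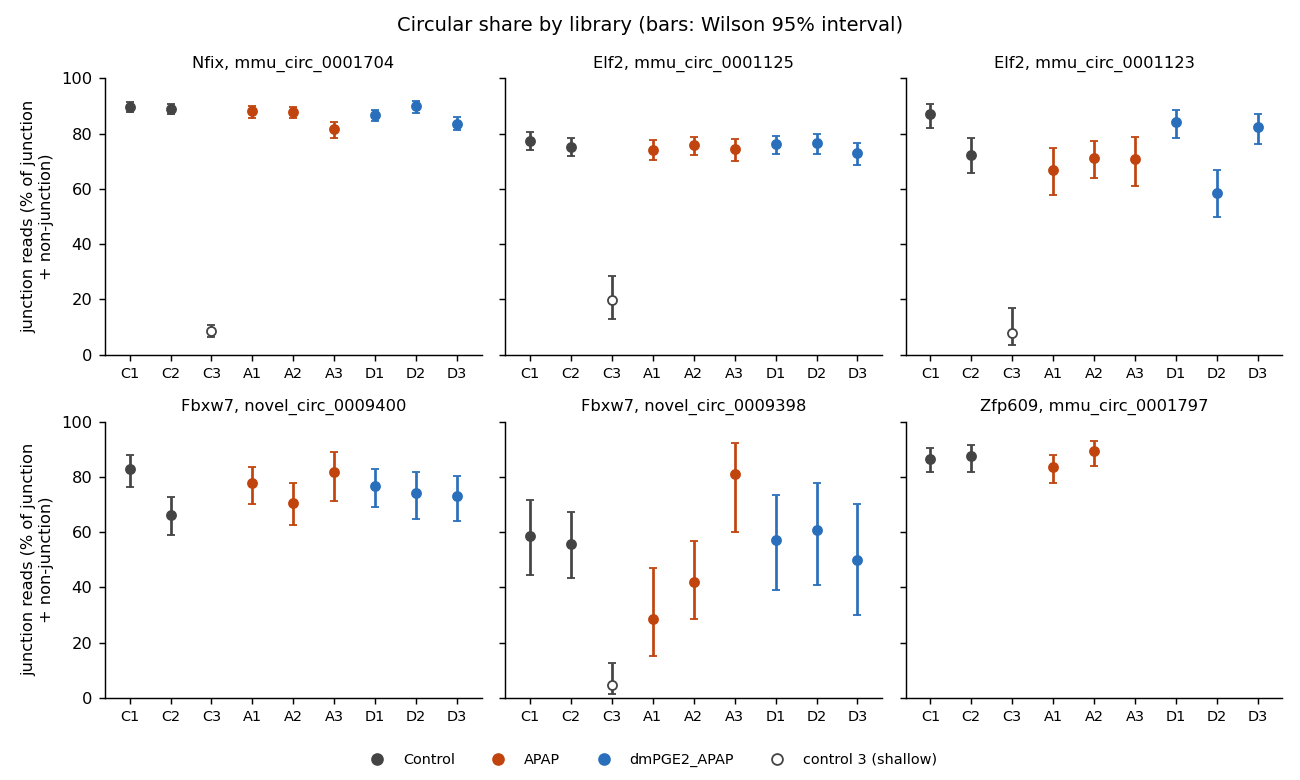
Circular share (percent of junction reads among junction and non-junction reads) with 95% Wilson intervals for 6 member rings in each library, C for control, A for APAP and D for dmPGE2+APAP. The Nfix and Elf2 rings vary little over the 8 deeper libraries and stand at 8.42% and 19.6% in control 3, and the Zfp609 ring has values in 4 libraries.

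Among the other 2352 hosts tested, the sum whose log2 CPM followed each member most closely over the 9 libraries was taken, as a description. It was Hibch for Hipk3 (r = 0.91), with 9 and 12 reads in controls 1 and 2, 10 in APAP 1 and 0 elsewhere. It was Strn3 for Zfp609 (r = 0.96), Nsd2 for Arid1a (r = 0.90), Sppl3 for Nfix (r = 0.84), an unnamed gene (ENSMUSG00000087361) for Elf2 (r = 0.92) and Msh3 for Fbxw7 (r = 0.98). Strn3 had 157 to 197 reads in each dmPGE2+APAP library, where the Zfp609 single-exon ring was at 0. Sppl3 and ENSMUSG00000087361 had at most 18 reads in any library, so the matches to Nfix and Elf2 rest on low counts. In control 1, Sppl3 was at 0 where Nfix had 1229 reads. Msh3, like the Fbxw7 single-exon ring, was at 0 in control 3, and all these values share the depth of their library.

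A list of 42 other hosts of widely studied circRNAs was set beside the 6. Of these, 24 had back-splice reads and 20 were tested. Crebrf (5111 CPM) and Zfp148 (4101 CPM) had the highest means over the deeper libraries, below Nfix and Elf2 and above Fbxw7. In each of the 3 comparisons 0 of the 20 passed the edgeR test, nor that of DESeq2 or limma-voom, with 0 to 2 of them at an unadjusted p under 0.05. The share of all tested hosts at such a p is not given here. For the 20, the median log2 difference was 0.30 for APAP minus control, beside 0.15 over all hosts, and 0.11 for dmPGE2+APAP minus APAP, beside 0.03.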

How the data were processed

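The members and gene lists were chosen with earlier results of these data known. Ribosomal RNA was removed and the strand marked by dUTP, from an input of 1 µg total RNA, per the labels' protocols. Per the file headers, the deposited table holds for each circRNA a whole-number count of back-splice reads per library and a TPM value. The deposited TPM is that count times 1 constant per library, without a length term. Lists of non-junction reads are comma-separated, and 10490 of 11312 were usable, since some had become single numbers. Among members the lists of novel_circ_0009294 and mmu_circ_0001124 were unusable. The submitters' processing notes name HISAT2 and the build GRCm38 (mm10) without a role, and the circRNA caller is not given in the sources used here. No label explains the code BC of 3 count columns. By elimination they were taken as the controls, and the TPM columns of that code were not used.

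Starts were raised by 1. Ring ends were matched to exon ends of GENCODE M21. Rings (4331) and host sums (2358) reaching 5 reads in 3 or more of the 9 libraries entered the edgeR 4.0.16 quasi-likelihood test (R 4.3.3, TMM, 1 mean per group, all 9 libraries, Benjamini-Hochberg over all tested, threshold 0.05). Each member host was named with its most-read single-exon ring and its most-read ring of 2 or more exons, and other rings where called or where 20 or more reads stood beside a 0 in a group. Circular shares needed 10 reads per value, and the exact permutation test over the 3 groups was run on all rings with at least 2 values per group. Most-alike hosts are by Pearson r of log2 CPM with a prior count of 2. Of the other widely studied hosts, those with the highest mean CPM were named, and 1 is not reported here. Alternatives were no TMM, RLE size factors, DESeq2 1.42.0, limma-voom (limma 3.58.1), no filter, at least 10 reads in 3 libraries, only the 2 groups compared, a replicate block, each library left out, 20 reads per share, and the deposited TPM. The scripts were tested on simulated data.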

Additional observations from a re-analysis of the deposited data

How the results depend on the processing

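Counts of called members moved with the tool. For APAP minus control, 1 member ring was called in the main setting, and 0 with DESeq2, limma-voom or at least 10 reads in 3 libraries (0 to 1 with each library left out). For dmPGE2+APAP minus APAP it was 1, then 0 with DESeq2, limma-voom or only the 2 groups, and 2 with no filter, where the Hipk3 ring was added. With the replicate block, 0 member rings were called. For dmPGE2+APAP minus control it was 2, then 0 with DESeq2 or only the 2 groups and 1 with limma-voom or the filter at 10 (1 to 2 with each library left out). Host sums went in the same order of comparisons from 1 to 0 with DESeq2, limma-voom, the filter at 10 or only the 2 groups (0 to 1 over left-out libraries). They went from 2 to 0 with DESeq2, limma-voom or only the 2 groups and to 1 with the filter at 10 or the replicate block (0 to 2). They went from 3 to 0 with DESeq2 or limma-voom and to 1 with the filter at 10 or only the 2 groups (1 to 3). Part of these drops are members that failed the filter and were not tested. With the filter at 10 these were the Arid1a ring, its sum and the Hipk3 sum, and with only the 2 groups or the block the Zfp609 ring and the Hipk3 sum in comparisons with dmPGE2+APAP. DESeq2 gave the Hipk3 sum no p. For the other drops the cause was not tested.

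Over left-out libraries the Arid1a ring ranged from -8.89 to 0.56 (log2, APAP minus control) and from -4.97 to 0.038 (dmPGE2+APAP minus control), and its host sum from -9.39 to 0.61 and from -5.47 to 0.051. The values above 0 are those without control 3. Where the libraries left put a group at 0 throughout, the fitted value is set by the prior count and bounds nothing. The Nfix ring, close to 0, ranged from -0.18 to 0.16 and, for dmPGE2+APAP minus APAP, from -0.099 to 0.054, and for APAP minus control stood at -0.32 with no TMM scaling, 0.011 with RLE size factors and 0.00062 with no filter. The Fbxw7 ring ranged from -0.038 to 0.53 and from -0.31 to 0.0087. Group mean CPM of the hosts moved by less than 1 SD with the deposited TPM (APAP and dmPGE2+APAP only, since the control TPM was not run). The Arid1a control mean went from 1930 CPM to 29.1 without control 3.

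Same-numbered APAP and dmPGE2+APAP libraries did not deviate together (correlations of -0.0212 to 0.00757 over rings). The labels do not say whether the numbers mark a shared animal, litter or day, and these correlations cannot settle it. No paired analysis was possible because the control columns carry no number tied to a label, for the 2 comparisons with control. Rings under 5 reads in 3 libraries could not be tested, and the smallest count above 0 of 2 limits what a 0 says.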
